A study of Rattus norvegicus with 6 samples.

Results

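Marker genes of cerebral cortex and thalamus, regions that lie close to the hippocampus in the rat brain, were followed in hippocampal RNA as a check of dissection. The cortical set held 6 genes (Cux2, Rorb, Lamp5, Fezf2, Tbr1 and Tle4) and the thalamic set 3 (Tcf7l2, Lef1 and Prkcd). They were chosen by name, and each matched exactly 1 of the 22062 genes in the deposited table. All 9 passed the filter on low counts. Hippocampi of Sprague Dawley rats gave 6 libraries, 3 from animals put through single prolonged stress (SPS) and 3 from Control animals. For SPS, 2 hours of immobilisation in a plastic container were followed by 20 minutes of forced swimming at 24 °C with a rest of 15 minutes, and then by anaesthesia to unconsciousness and return to the cage. Control rats stayed in their home cages and were not handled. No source used here gives the sex, the age, the time between stress and dissection, or whether 1 library is 1 animal, and the p-values below therefore describe library-to-library spread, which may be technical.

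Cortical projection neurons of each layer keep distinct transcription factors after they are born. Upper-layer cells, which connect cortical areas, express Cux2, cells of the middle layer that receives thalamic input express Rorb, and deep-layer cells, which project below the cortex or to the thalamus, express Fezf2, Tbr1 and Tle4. Thalamic relay neurons express the Wnt effectors Tcf7l2 and Lef1, and many of them the kinase Prkcd. Several of them are also made in other cells, Tbr1 by hippocampal excitatory neurons, Lamp5 by neurogliaform interneurons, Tcf7l2 by maturing oligodendrocytes and Lef1 by brain endothelium. A level in hippocampal RNA is therefore not by itself a measure of tissue from outside the hippocampus. In bulk RNA fewer cells of a type and less RNA per cell cannot be told apart.

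Of the members, 7 are transcriptional regulators, so the windows around their start sites were searched for the sites that the members' own families bind. RefSeq windows of 300 bases on build GRCr8, 250 before the start site and 50 after it, were matched by symbol for all 9. The searched letters, on both strands, were CTTTGA (the core bound by TCF and LEF proteins such as Tcf7l2 and Lef1), GGTGTGA (a core bound by T-box proteins), AGGTCA (a core bound by ROR receptors) and ATCGAT (a core bound by CUX proteins). CTTTGA was found in the windows of the 3 deep-layer members and of no other member, and in 16.1% of 33469 windows of all genes. ATCGAT was found in that of Cux2 and in 0.896% of all windows, AGGTCA in that of Prkcd and in 16.2%, and GGTGTGA in none of the 9 and in 3.83%. A match is a description of the letters in these windows and not a bound site. The 4 windows below are those of the 3 deep-layer members, which hold CTTTGA, and that of Cux2, whose ATCGAT was the rarest of the searched cores, with the match in capitals, 5′ to 3′ on the strand of the gene. They lie at chr15:15203943-15204242 on the plus strand, chr3:66759553-66759852 on the plus strand, chr1:221222777-221223076 on the minus strand and chr12:40179032-40179331 on the plus strand. Relative to the start site the matches begin at −227, −187, −19 and −45, and that of Tle4 reads on the opposite strand to the gene.
Fezf2: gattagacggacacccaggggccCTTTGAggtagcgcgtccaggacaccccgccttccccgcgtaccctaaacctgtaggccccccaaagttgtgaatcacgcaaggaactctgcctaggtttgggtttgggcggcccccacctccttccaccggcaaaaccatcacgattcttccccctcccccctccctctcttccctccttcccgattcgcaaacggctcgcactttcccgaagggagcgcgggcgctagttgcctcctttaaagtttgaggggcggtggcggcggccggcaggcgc
Tbr1: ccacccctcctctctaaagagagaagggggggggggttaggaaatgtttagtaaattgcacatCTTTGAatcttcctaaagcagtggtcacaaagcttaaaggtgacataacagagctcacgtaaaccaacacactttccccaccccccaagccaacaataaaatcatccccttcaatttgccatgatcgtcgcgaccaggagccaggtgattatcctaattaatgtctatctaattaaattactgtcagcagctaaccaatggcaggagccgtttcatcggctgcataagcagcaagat
Tle4: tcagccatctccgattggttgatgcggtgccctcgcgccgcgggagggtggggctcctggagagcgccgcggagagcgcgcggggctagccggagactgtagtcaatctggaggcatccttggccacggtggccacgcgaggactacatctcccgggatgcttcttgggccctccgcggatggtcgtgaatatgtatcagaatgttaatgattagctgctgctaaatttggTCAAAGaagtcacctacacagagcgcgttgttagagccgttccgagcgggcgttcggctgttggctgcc
Cux2: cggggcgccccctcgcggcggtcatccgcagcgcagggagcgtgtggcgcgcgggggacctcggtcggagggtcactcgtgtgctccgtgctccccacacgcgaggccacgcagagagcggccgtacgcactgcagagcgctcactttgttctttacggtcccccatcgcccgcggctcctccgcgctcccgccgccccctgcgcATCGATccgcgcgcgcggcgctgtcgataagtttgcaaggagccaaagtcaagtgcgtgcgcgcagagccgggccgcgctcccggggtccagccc
The windows of Tbr1 and Lamp5 had GC contents of 45.3% and 47.7%, below the median of 51.7% over all windows, and the other 7 members lay between 60.7% and 73.0%.

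Depth, counted as whole reads recovered from the count columns, was 11148531, 4081184 and 5768628 in SPS replicates 1 to 3 and 11838770, 5321132 and 4786503 in Control replicates 1 to 3. Libraries with the same number resembled each other across all genes. SPS replicate 2 listed 326 genes at 0 among the 9936 that had at least 20 reads in every other library, a share of 3.28%, against 17 of 9425 in Control replicate 2 and at most 3 in any other library. Transthyretin (Ttr), the marker of choroid plexus, reached 55688 FPKM in SPS replicate 2 and at most 188.8 FPKM elsewhere. Prox1, which marks dentate granule cells of the hippocampus, had 1105, 287 and 2432 reads in SPS replicates 1 to 3, against 826, 32 and 1904 in Control replicates 1 to 3. Wfs1, a marker of field CA1, averaged 139 ± 39.8 FPKM in SPS and 212 ± 76.3 FPKM in Control (SD, n = 3 each). Hippocampal markers were thus measured in every library, with Prox1 lowest in Control replicate 2.

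None of the 9 members passed the test between SPS and Control. With edgeR's quasi-likelihood test on recovered reads and Benjamini-Hochberg adjustment, 0 of 12441 genes were called (0.0%), and the adjusted p of all 9 members was 1.00. With limma on log2(FPKM + 1), 0 of 13745 genes were called (0.0%), again with an adjusted p of 1.00 for each member. At an unadjusted p under 0.05, edgeR had 42 genes (0.338% of those tested) and limma 94 (0.684%), and no member was among either. In all genes tested, 1.54% had every SPS library above every Control library and 1.4% had every SPS library below, by scaled read counts (CPM). In none of the 9 members were the groups separate in either direction. The edgeR estimates for the 9 members carried standard errors (SE) of 0.34 to 1.43 on the log2 scale. With the replicate number as a block they were 0.18 for Tle4, 0.20 for Lamp5, 0.21 for Fezf2, 0.34 for Prkcd, 0.35 for Tbr1, 0.49 for Cux2, 0.51 for Tcf7l2, 1.06 for Rorb and 1.77 for Lef1. The paired edgeR fit had 172 genes at an unadjusted p under 0.05 (1.38%), and again no member was among them or was called.

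**Figure D1:**
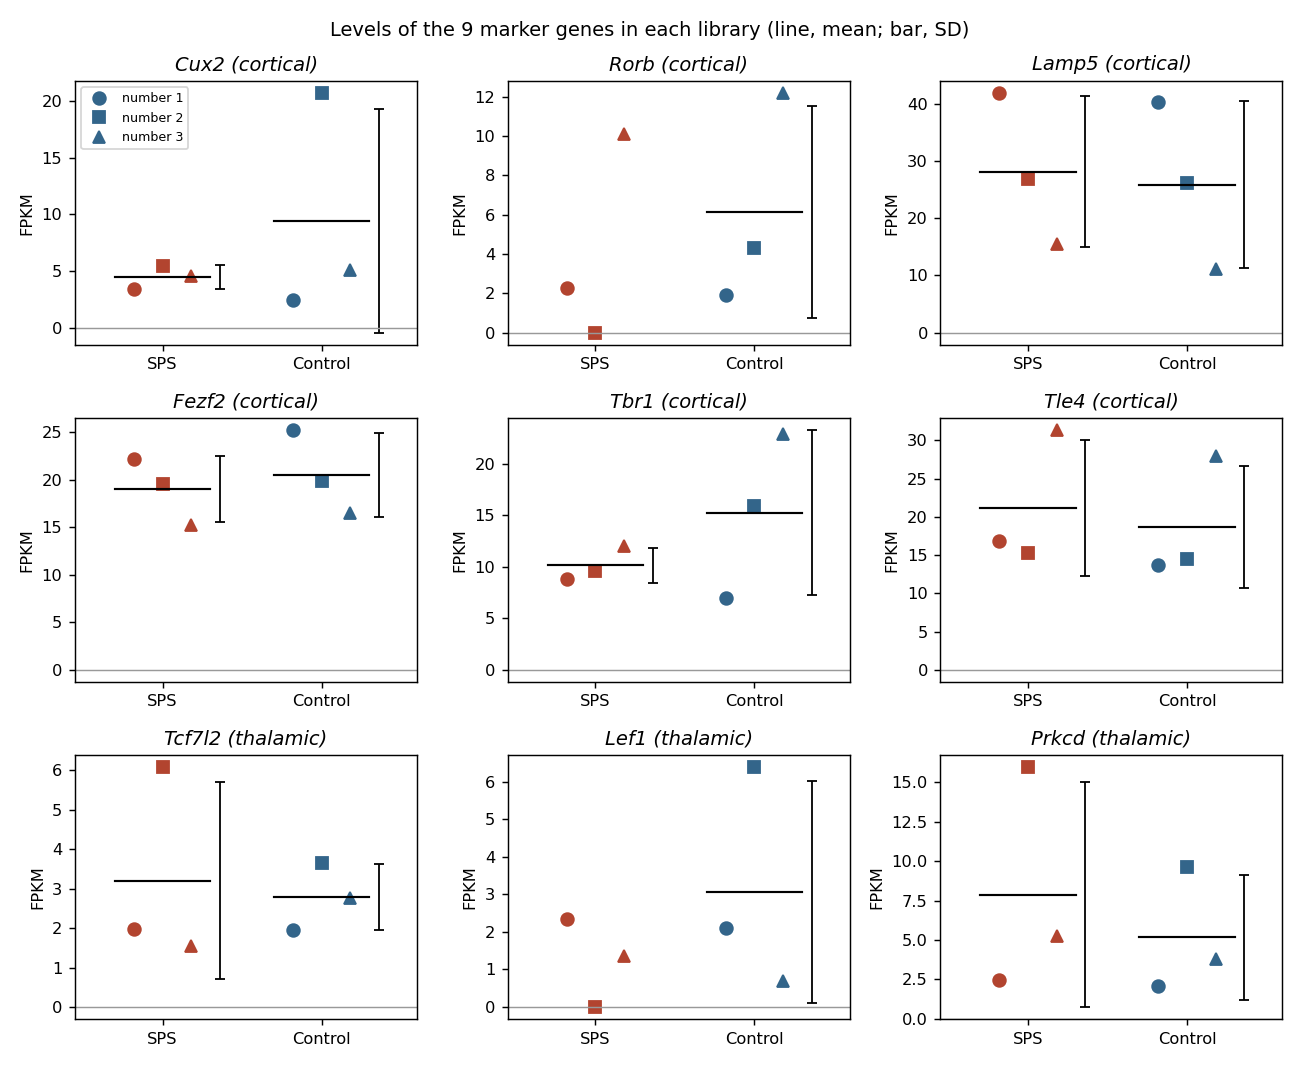
FPKM of each marker gene in every library, SPS to the left of Control, with a symbol for each replicate number, a line for the group mean and a bar for the SD (n = 3; no mean is drawn for SPS where a library is listed at 0). Lamp5 has the same order of replicate numbers in both groups, and Cux2 stands out in Control replicate 2 at 20.7 FPKM.

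Cux2, the upper-layer homeodomain factor (ENSRNOG00000001259, chromosome 12, 40018936 to 40219291 in the coordinates of the deposited table, whose build is not given), was at 3.38, 5.44 and 4.56 FPKM in SPS replicates 1 to 3, against 2.48, 20.7 and 5.08 FPKM in Control replicates 1 to 3. Control replicate 2 lay far above the other libraries, and the groups overlapped. The recovered reads showed the same, with 200, 118 and 146 in SPS and 156, 589 and 137 in Control. The log2 fold change was −1.05 ± 0.71 (SE) in edgeR and −0.52 ± 0.67 in limma. Without Control replicate 2 the edgeR value was 0.12, so the sign of the difference rested on that library. By same-numbered pair the log2 ratio of CPM, SPS over Control, was 0.41, −1.94 and −0.20.

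Other markers did not single out Control replicate 2 in one way. The 13 tested deep-layer markers lay −0.07, −0.57 and 0.38 from the mean of the 6 libraries in SPS replicates 1 to 3, against −0.36, 0.39 and 0.24 in Control replicates 1 to 3, as an average of log2(CPM + 1). The 11 upper and middle layer markers lay at 0.27, −0.99 and 0.34 in SPS and at −0.16, −0.04 and 0.58 in Control, so that list was highest in Control replicate 3. The 9 tested striatal markers lay highest in Control replicate 2 by this average, at 0.76, and between −0.26 and −0.04 in the others, but the summed CPM of the striatal list was highest in SPS replicate 2, at 160.8, 497.0 and 199.6 in SPS replicates 1 to 3, against 177.5, 331.1 and 243.1 in Control replicates 1 to 3. The 14 tested hippocampal field markers were lowest in Control replicate 2 by the average, at −0.69. The summed CPM of their list was lowest in SPS replicate 2, at 1513, 1229 and 1942 in SPS replicates 1 to 3, against 1995, 1645 and 2120 in Control replicates 1 to 3. A sum gives abundant genes most weight. Wfs1 and Mpped1 had 4622 and 2352 reads in Control replicate 2, where Prox1 had 32. The sum without Wfs1 and Mpped1 was not taken. In the striatal list Ppp1r1b had 1763 reads in SPS replicate 2. Wfs1 was at 174, 147 and 95.7 FPKM in SPS replicates 1 to 3, against 274, 235 and 126 in Control replicates 1 to 3. Wfs1 by itself was thus not low in Control replicate 2, but the tissue its reads came from was not tested. The part of any other tissue in the Cux2 value was not tested.

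Rorb, the nuclear receptor of the middle layer (ENSRNOG00000013413, chromosome 1, 234252756 to 234435839), was at 2.28, 0 and 10.1 FPKM in SPS replicates 1 to 3, against 1.92, 4.28 and 12.2 FPKM in Control replicates 1 to 3. Both libraries numbered 3 were the highest, and the groups overlapped. The corresponding reads were 58, 0 and 141 in SPS and 54, 35 and 145 in Control. Among the 3330 genes whose median over the other 5 libraries lay within 2-fold of that of Rorb, 499 (15.0%) were listed at 0 in SPS replicate 2, against 1.89% for the like set in Control replicate 2. The 0 of Rorb is therefore given only as listed. The log2 fold change was −0.48 ± 1.43 (SE) in edgeR and −0.83 ± 0.93 in limma with that library, and 0.10 in edgeR without it. The pairs numbered 1 and 3 had log2 CPM ratios of 0.15 and −0.33.

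Lamp5, a membrane protein of the lysosome-associated family (ENSRNOG00000005457, chromosome 3, 129018591 to 129031521), had the highest mean FPKM of the members in both groups, at 41.9, 26.8 and 15.6 FPKM in SPS replicates 1 to 3, against 40.4, 26.1 and 11.2 FPKM in Control replicates 1 to 3. Its level followed the replicate number in both groups and differed little within a pair. Reads ranged from 188 to 949 in SPS and from 114 to 975 in Control, so counting error was small. The means were 28.1 ± 13.2 FPKM in SPS and 25.9 ± 14.6 FPKM in Control (SD, n = 3 each), and edgeR estimated a log2 difference of 0.09 ± 0.54 (SE). The log2 CPM ratios of the pairs were 0.01, 0.04 and 0.43.

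Fezf2, the zinc-finger factor that specifies deep-layer neurons projecting below the cortex (ENSRNOG00000009206, chromosome 15, 12827706 to 12831496), varied least. It was at 22.1, 19.6 and 15.3 FPKM in SPS replicates 1 to 3, against 25.2, 19.8 and 16.4 FPKM in Control replicates 1 to 3, and the highest library was 1.65-fold above the lowest. The groups overlapped, and SPS was below Control in all 3 pairs, with log2 CPM ratios of −0.23, −0.02 and −0.15. The share of all genes with the same sign in all 3 pairs was not counted. The log2 fold change was −0.14 ± 0.34 in edgeR and −0.10 ± 0.36 in limma (SE).

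Tbr1, the T-box factor of neurons that project from cortex to thalamus (ENSRNOG00000005049, chromosome 3, 47677719 to 47685902), was at 8.78, 9.61 and 11.99 FPKM in SPS replicates 1 to 3, against 6.95, 15.9 and 22.9 FPKM in Control replicates 1 to 3. Control held both the highest and the lowest library. The log2 CPM ratios of the pairs were 0.30, −0.73 and −0.98, and the log2 fold change was −0.62 ± 0.52 (SE) in edgeR. Without Control replicate 3 it was −0.13, so the size of the difference rested largely on that library.

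Tle4, a Groucho-type corepressor of the same corticothalamic neurons (ENSRNOG00000013239, chromosome 1, 231393378 to 231530786), was at 16.8, 15.2 and 31.3 FPKM in SPS replicates 1 to 3, against 13.7, 14.5 and 27.9 FPKM in Control replicates 1 to 3. Both libraries numbered 3 were high, and the other 4 lay close together. Values within a pair were close, with log2 CPM ratios of 0.13, −0.02 and 0.03, and the log2 fold change was 0.04 ± 0.42 (SE) in edgeR. Reads ranged from 253 to 740 in SPS and from 334 to 700 in Control.

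Tcf7l2, the Wnt effector of the TCF family (ENSRNOG00000049232, chromosome 1, 276659541 to 276730514), was low throughout, at 1.98, 6.08 and 1.54 FPKM in SPS replicates 1 to 3, against 1.96, 3.65 and 2.76 FPKM in Control replicates 1 to 3. The library numbered 2 was the highest of each group. Reads were 79, 89 and 33 in SPS and 83, 70 and 50 in Control. The log2 fold change was 0.13 ± 0.65 (SE) in edgeR, and it was −0.63 without SPS replicate 2. The log2 CPM ratios of the pairs, −0.02, 0.73 and −0.89, pointed in different directions.

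The 13 oligodendrocyte markers summed to 16207, 31396 and 13629 CPM in SPS replicates 1 to 3, against 13513, 8951 and 10499 CPM in Control replicates 1 to 3. All 13 had positive log2 fold changes with a median of 0.83, none was called, and in 7 every SPS library lay above every Control library, beside 1.54% of all genes. The 14 choroid plexus markers summed to 34762 CPM in SPS replicate 2 and to at most 168 CPM elsewhere, with 1 of the 14 at 0 in every library. The 9 measured pericyte and fibroblast markers summed to 130.7, 1422.6 and 352.2 CPM in SPS replicates 1 to 3. In Control replicates 1 to 3 they summed to 152.3, 958.2 and 228.6 CPM. Their average of log2(CPM + 1) lay 0.76 above the mean of the 6 libraries in SPS replicate 2 and 1.12 above it in Control replicate 2. The part of any of these lists in the level of Tcf7l2 or Prkcd was not tested.

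Lef1, the other Wnt effector of this kind (ENSRNOG00000010121, chromosome 2, 236233238 to 236345056), was at 2.35, 0 and 1.35 FPKM in SPS replicates 1 to 3, against 2.11, 6.38 and 0.69 FPKM in Control replicates 1 to 3. The library numbered 2 was the lowest in SPS and the highest in Control. It had the fewest reads of the members, 68, 0 and 21 in SPS and 65, 89 and 9 in Control, and the exact Poisson 95% interval of the 9 reads ran from 4.12 to 17.1, for counting error only. Of 3484 genes with a median over the other 5 libraries within 2-fold of that of Lef1, 440 (12.6%) were also listed at 0 in SPS replicate 2. The like set in Control replicate 2 had 248 of 2155 (11.5%) at 0, around a median of 21 reads against 65. The log2 fold change was −1.21 ± 1.33 (SE) in edgeR with SPS replicate 2 and −0.64 without it. It ranged from −2.02 without SPS replicate 1, with −1.68 without Control replicate 3, to −0.22 without Control replicate 2. In the pairs numbered 1 and 3 the log2 CPM ratios were 0.12 and 0.93. The 8 measured endothelial markers summed to 230.5, 492.6 and 297.4 CPM in SPS replicates 1 to 3 and to 287.3, 607.0 and 272.6 CPM in Control replicates 1 to 3, highest in the library where Lef1 was highest. Their part in the level of Lef1 was not tested.

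Prkcd, protein kinase C delta of thalamic relay neurons (ENSRNOG00000016346, chromosome 16, 6655119 to 6675746), was at 2.44, 15.96 and 5.24 FPKM in SPS replicates 1 to 3, against 2.09, 9.63 and 3.76 FPKM in Control replicates 1 to 3. The order of the numbers was the same in both groups, with number 2 highest and number 1 lowest. SPS was above Control in all 3 pairs, as for Lamp5, with log2 CPM ratios of 0.17, 0.46 and 0.05. How many of all genes had the same sign in all 3 pairs was not counted. The log2 fold change was 0.31 ± 0.76 in edgeR and 0.41 ± 0.71 in limma (SE), and 0.23 ± 0.34 in edgeR with the replicate number as a block. Without the block the edgeR value was −0.57 without SPS replicate 2 and 0.98 without Control replicate 2. The 2 columns of the table were not fully alike for this gene. The ratio of deposited count to FPKM, which follows the transcript length used, was 15.9 and 15.1 in SPS replicates 2 and 3 and between 19.0 and 20.0 in the other 4 libraries, so in pair 3 the log2(FPKM + 1) difference was 0.39 where the log2 CPM ratio was 0.05. Rorb and Tle4 also had ratios that differed between libraries, and the other 6 had nearly the same ratio in every library.

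**Figure D2:**
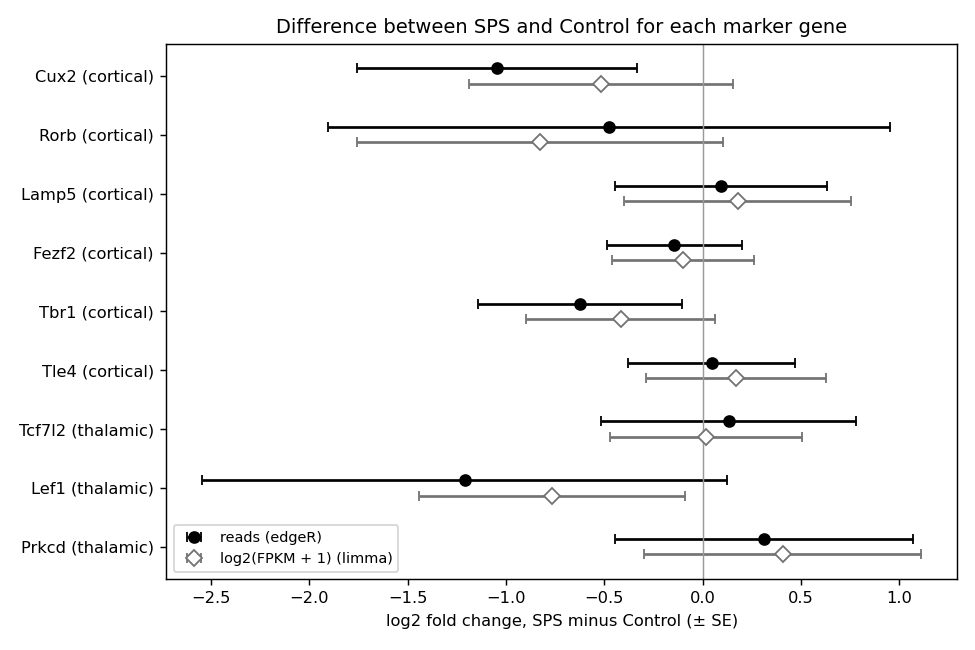
Log2 fold change of each marker gene, SPS minus Control, with its standard error, from reads (filled circles) and from log2(FPKM + 1) (open diamonds). Cux2 and Lef1 have the lowest estimates, −1.05 and −1.21 from reads, and no member passed the test over all genes.

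Across the cortical members the median log2 fold change was −0.31 in edgeR, with 2 of 6 positive, and −0.26 in limma. Over all genes tested the medians were −0.02 and 0.00, with 5956 of 12441 positive in edgeR. The thalamic members had medians of 0.13 and 0.02, with 2 of 3 positive. The cortical median was −0.01 without SPS replicate 2 and −0.11 without both libraries numbered 2, and the thalamic median was −0.63 without SPS replicate 2. By same-numbered pair the cortical medians were 0.14, −0.02 and −0.18 over the 6, 5 and 6 genes with reads in both libraries, and the thalamic ones 0.12, 0.60 and 0.05 over 3, 2 and 3 genes.

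**Figure D3:**
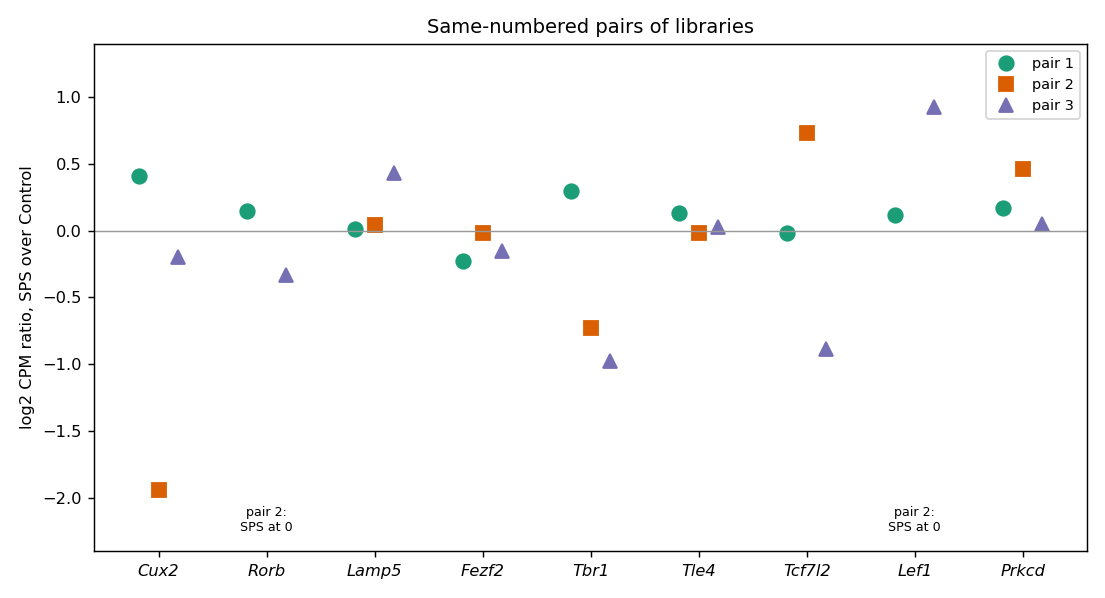
Log2 ratio of CPM, SPS over Control, of each marker gene in the 3 same-numbered pairs. Cux2 in pair 2, at −1.94, is the farthest from 0. The ratios of Rorb and Lef1 in pair 2 are not drawn because SPS replicate 2 is listed at 0.

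The levels differed more by replicate number than by group in 8 of the 9 members. The sum of squares of log2(CPM + 1) over the 6 libraries was divided into group (1 of 5 degrees of freedom), replicate number (2) and the remainder (2). Replicate number held 99.2% for Tle4, 97.3% for Prkcd, 96.4% for Lamp5 and 87.4% for Fezf2, and 60.6% to 75.0% for Rorb, Tcf7l2, Tbr1 and Cux2. Group held 0.138% for Tcf7l2 to 19.2% for Lef1, where the remainder held 71.2%. The shares of Rorb and Lef1 include the 0 listed for each in SPS replicate 2. Over all genes tested the median share was 73.9% for number and 5.76% for group.

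**Figure D4:**
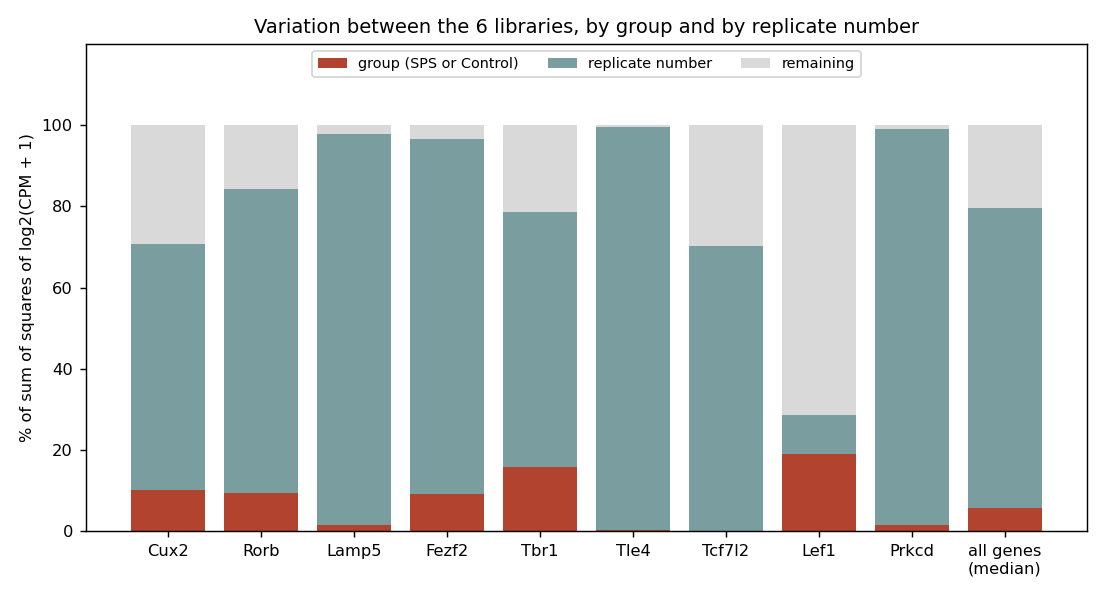
Share of the sum of squares of log2(CPM + 1) that lies between SPS and Control, between replicate numbers and in neither, for each marker gene and as the median over all 12441 genes tested. Number holds the largest share in all members but Lef1, whose shares include a listed 0 in SPS replicate 2.

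The members did not follow one pattern across libraries. Lamp5 and Fezf2 were highest in both libraries numbered 1, Rorb and Tle4 in both numbered 3, and Tcf7l2 and Prkcd in both numbered 2. Cux2 and Lef1 were highest in Control replicate 2, and Tbr1 in Control replicate 3. As a description over 6 libraries, with no test and with library depth shared by all genes, Pearson's r of log2(CPM + 1) was 0.844 between Tcf7l2 and Prkcd, 0.849 between Rorb and Tle4, 0.838 between Lamp5 and Fezf2, and −0.874 between Lamp5 and Tbr1. Upper-layer Cux2 had an r of 0.064 with Rorb and of −0.362 with Lamp5, and Tcf7l2 of −0.531 with Lef1. The r values of Rorb and Lef1 include the 0 listed for each in SPS replicate 2.

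Among 11073 genes with a mean of at least 5 CPM, those most like each member over the 6 libraries were ranked by the same r. For Cux2 they were Kcnip3, Abhd17b and Klf5 (0.986, 0.979 and 0.977), and Axl and Sumo2 were among the 3 closest to Tbr1 (0.983 and 0.979). For Tcf7l2 they were Tbcb, Aqp1 and Sft2d2 (0.992, 0.982 and 0.982), and for Prkcd Lama5, Best1 and Rai14 (0.990, 0.990 and 0.989). Lef1 was closest to Cyp27a1, Prim1 and Lysmd1 (0.997, 0.992 and 0.991). Lamp5 was closest to Gnl2, Nsa2 and Snapc5 (0.996, 0.994 and 0.993) and Fezf2 to Ppp1r37, Pik3r2 and Prrt1 (0.989, 0.988 and 0.987). Rorb was closest to Cspg4, Sirpa and Nol4 (0.999, 0.999 and 0.997) and Tle4 to Lsamp, Ipo7 and Usp29 (0.998, 0.998 and 0.997). Over only 6 libraries, 1190 genes reached an r of 0.9 with Tle4, 1139 with Rorb and 34 with Tbr1. The cause of this difference between members was not tested. For Rorb and Lef1 the r includes the 0 listed in SPS replicate 2.

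By mean FPKM in Control, a level per transcript length, the cortical members ranked above the thalamic ones, but Prkcd and Lef1 exceeded Rorb in Control replicates 1 and 2, and in both libraries numbered 3 Tle4 exceeded Lamp5. Mean FPKM in Control was 25.9 ± 14.6 for Lamp5, 20.5 ± 4.41 for Fezf2, 18.7 ± 7.96 for Tle4, 15.2 ± 7.99 for Tbr1, 9.42 ± 9.85 for Cux2, 6.13 ± 5.37 for Rorb, 5.16 ± 3.96 for Prkcd, 3.06 ± 2.96 for Lef1 and 2.79 ± 0.85 for Tcf7l2 (SD, n = 3). Neighbours in this order did not differ beyond their SD in Control. In SPS the means were 28.1 ± 13.2 for Lamp5, 21.1 ± 8.88 for Tle4, 19.0 ± 3.46 for Fezf2, 10.1 ± 1.67 for Tbr1, 7.88 ± 7.14 for Prkcd, 4.46 ± 1.03 for Cux2 and 3.20 ± 2.5 for Tcf7l2, leaving out Rorb and Lef1 with a library at 0, and of neighbours only Fezf2 and Tbr1 lay further apart than their SDs. For scale, Slc17a7, the vesicular glutamate transporter of cortical and hippocampal excitatory neurons, averaged 617 ± 210 FPKM in SPS and 682 ± 115 FPKM in Control, and Slc17a6, its counterpart in thalamus, 6.02 ± 2.56 FPKM in SPS and 3.15 ± 0.88 FPKM in Control (SD, n = 3 each).

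Further markers of the same regions were tested, and no gene was called in any of the following lists by edgeR or limma. Of 13 further markers of upper and middle cortical layers, 11 were in the table and tested, with a median log2 fold change of −0.17 and 4 positive. The smallest p belonged to Rspo1, a secreted Wnt enhancer, at 2.76, 2.34 and 0.72 FPKM in SPS replicates 1 to 3, against 4.06, 10.5 and 1.7 FPKM in Control replicates 1 to 3 (log2 fold change −1.47 ± 0.89, SE). Calb1, a calcium-binding protein, and Pou3f2, a POU-domain factor, followed it with values of −0.62 ± 0.57 and −1.03 ± 1.35. All 3 were highest in Control replicate 2, but the list as a whole was not, with a summed CPM of 396.8, 160.4 and 529.7 in SPS replicates 1 to 3, against 342.9, 339.3 and 558.0 in Control replicates 1 to 3.

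Of 17 deep-layer markers 13 were tested, with a median of −0.36 and 5 positive. Deptor, an inhibitor of mTOR signalling, was at 3.83, 16 and 16.3 FPKM in SPS replicates 1 to 3, against 2.58, 1.86 and 7.25 FPKM in Control replicates 1 to 3 (1.56 ± 0.81). Rprm, a p53 target gene, was at 2.2, 0 and 2.03 FPKM in SPS replicates 1 to 3, against 1.12, 19.0 and 1.2 FPKM in Control replicates 1 to 3. Deptor was lowest and Rprm highest in Control replicate 2. Rprm (−2.20 ± 1.51) and Sulf1, an extracellular sulfatase (1.45 ± 1.08), came next. The groups overlapped in all 13.

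Of 16 thalamic markers 15 were tested, with a median of −0.01 and 7 positive. Calb2, the calcium-binding protein calretinin, was at 12.6, 39.0 and 10.1 FPKM in SPS replicates 1 to 3, against 8.88, 1.56 and 3.67 FPKM in Control replicates 1 to 3 (2.02 ± 0.80, SE). It was the one gene of these 3 lists whose groups did not overlap, beside 1.54% of all genes in that direction, and its adjusted p was 1.00 in edgeR. Slc17a6 followed, with a log2 fold change of 0.92 ± 0.50, and Rgs16, a regulator of G-protein signalling, with −1.05 ± 0.90. Of 6 habenular markers 2 were tested, Tac3 at −1.08 ± 0.64 and Nwd2 at −0.02 ± 0.70, and 2 had no reads in any library.

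Tcf7l2 and Lef1 act in the Wnt and beta-catenin pathway, of which 19 of 24 listed genes were tested. Their median log2 fold change was 0.08, with 11 positive, none was called, and the groups overlapped in all 19. Rnf43, which removes Wnt receptors from the membrane, was at 3.63, 10.5 and 3.50 FPKM in SPS replicates 1 to 3, against 2.22, 1.42 and 4.66 FPKM in Control replicates 1 to 3 (0.98 ± 0.73, SE). Nkd1, a feedback inhibitor of the pathway, was at 12.7, 28.6 and 14.8 FPKM in SPS replicates 1 to 3, against 11.8, 16.9 and 8.64 FPKM in Control replicates 1 to 3 (0.56 ± 0.42). Tle2, a corepressor related to Tle4, was listed at 0 in SPS replicate 2, as Lef1 was, and had a value of −0.94 ± 1.22.

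**Figure D5:**
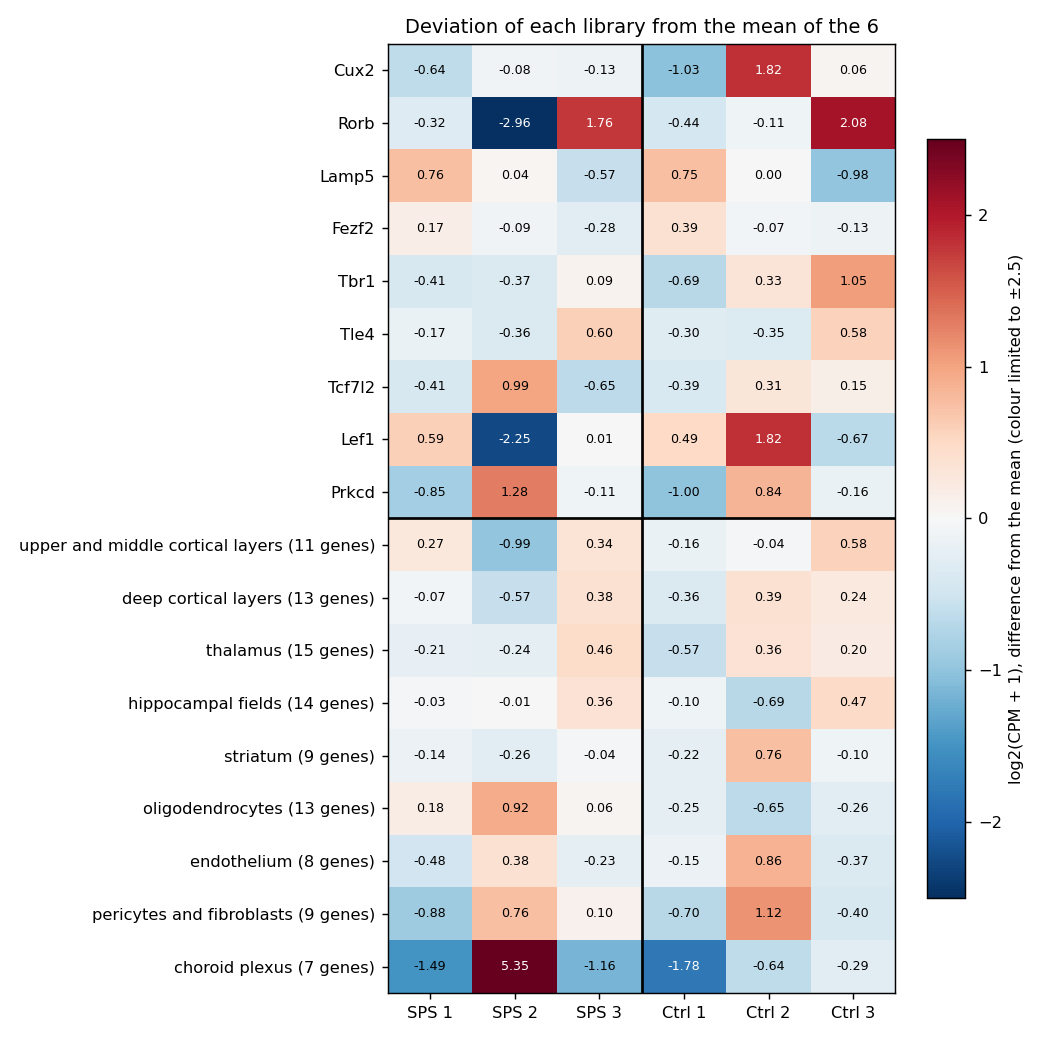
Deviation of log2(CPM + 1) in each library from the mean of the 6, for the 9 marker genes (above the line) and as the average over the tested genes of fixed marker lists (below it), with SPS to the left of Control. Control replicate 2 has the highest Cux2 (1.82), striatal (0.76) and endothelial (0.86) values and the lowest hippocampal field value (−0.69). By summed CPM, which gives abundant genes most weight, the striatal list is highest (497.0) and the hippocampal field list lowest (1229) in SPS replicate 2. Choroid plexus is at 5.35 in SPS replicate 2.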

How the data were processed

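Hippocampal total RNA was depleted of ribosomal RNA and sequenced for 150 cycles from a stranded kit, per the labels' protocols. CASAVA 1.8, HISAT2 and a build named hg19 are in the submitters' processing notes, although the identifiers are rat; the quantifier, rat build, annotation release and use of strand are not given in those sources. The FPKM values were made by the authors, per the file headers. The authors' estimated count columns, as deposited, sum to between 6788570 and 7287021 per library. Between 99.3% and 99.6% of their values above 0 were whole multiples of 1 step per library, within 0.05 reads, and were divided by it and rounded to whole reads.

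Reads were tested with edgeR 4.0.16 (R 4.3.3; TMM, its expression filter, quasi-likelihood fit on group, Benjamini-Hochberg adjustment over all 12441 genes tested; called at an adjusted p under 0.05), and log2(FPKM + 1) of the 13745 genes with a mean FPKM of at least 0.5 with limma 3.58.1. The edgeR fit was checked on counts simulated with the same dispersion for all genes and nothing shared by replicate number. That check does not show how the fit behaves with the replicate structure of these data. The SE in edgeR was the absolute log2 fold change divided by the square root of F. CPM are TMM-scaled reads per 1e+06. For Rorb and Lef1, listed at 0 in SPS replicate 2, the fitted value depends on the prior count. Alternatives were DESeq2 1.42.0, other scalings, filters and pseudocounts, a replicate block and left-out libraries.

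Deviations from group means correlated across genes at 0.407, 0.367 and 0.675 between same-numbered samples, all above the limit of 0.1. The numbers were therefore taken as pairs from the data in the pair ratios and the fits with a replicate block. The main edgeR and limma fits used group alone and left the pairing out. The labels do not say what the numbers share. Differently numbered samples lay between −0.501 and 0.164. The value of 0.164, for SPS replicate 2 with Control replicate 1, also passed the limit. The members and the 17 marker lists were chosen with earlier results of these data known. Named genes were the members, the 3 genes of smallest p in a list, the 3 genes most like each member, and Ttr, Mbp, Cldn5, Flt1, Prox1, Wfs1, Slc17a6 and Slc17a7; some genes that the rule names are not reported here. In none of the other marker lists was a gene called, and their median log2 fold changes were 0.83 for oligodendrocytes, 2.08 for ependyma, 4.44 for choroid plexus, −0.04 for astrocytes, −0.31 for endothelium, 0.01 for pericytes and fibroblasts, −0.05 for microglia, −0.34 for interneurons, −0.15 for subiculum, −0.19 for forebrain excitatory neurons, −0.36 for striatum and 0.01 for hippocampal fields. Promoter windows are RefSeq, build GRCr8, which was not matched to the coordinates of the table.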

Additional observations from a re-analysis of the deposited data

How the results depend on the processing

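No member was called under any of the 19 alternatives, where the lowest adjusted p of a member was 0.912 (limma with the replicate block); with so few samples this says nothing about stability. Of 171 member values, 24 turned sign, and only Tbr1 kept its sign throughout (−0.98 to −0.13). With the replicate block in edgeR the log2 fold changes were −0.05 for Tcf7l2, −0.56 for Cux2, −1.09 for Rorb, −1.01 for Lef1 and 0.15 for Lamp5. The other members had log2 fold changes of −0.14 for Fezf2, −0.47 for Tbr1, 0.05 for Tle4 and 0.23 for Prkcd, and the block changed no call. With limma on log2(FPKM + 0.1) they were −0.02 for Tcf7l2, −1.83 for Rorb and −1.66 for Lef1. With both libraries numbered 2 left out, the values were 0.01 for Cux2, −0.49 for Tcf7l2, 0.33 for Lef1 and −0.11 for the cortical median. Leaving out each library in turn gave ranges of −1.50 to 0.12 for Cux2, −2.36 to 0.87 for Rorb, −0.35 to 0.60 for Lamp5, −0.29 to 0.04 for Fezf2, −0.32 to 0.40 for Tle4, −0.63 to 0.42 for Tcf7l2, −2.02 to −0.22 for Lef1, −0.57 to 0.98 for Prkcd, −0.57 to −0.01 for the cortical median and −0.63 to 0.42 for the thalamic median. Chosen after seeing the data, limma without SPS replicate 2 gave 0.04 for Rorb, −0.44 for Tcf7l2, −0.22 for Prkcd, and −0.05 and −0.27 for the cortical and thalamic medians. Limma without both libraries numbered 2, also added later, gave 0.10 for Cux2, −0.28 for Tcf7l2, 0.29 for Lef1 and 0.03 for the cortical median. The cause of these changes, beyond the libraries left out, was not tested. Genes at an unadjusted p under 0.05 numbered 42 in edgeR and 11 to 277 over the alternatives, with 172 under the replicate block and 210 in DESeq2, and 0 by adjusted p in each. Depth limits Lef1, Tcf7l2 and Rorb most, at 252, 404 and 433 reads over the 6 libraries.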
